A study of Mus musculus with 4 samples.

Results

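Small nucleolar RNAs (snoRNAs) and small Cajal body RNAs (scaRNAs) encoded outside the imprinted clusters were examined in the adult mouse brain after ethanol exposure on postnatal days that model the third trimester of human pregnancy. Members were the probe sets whose gene symbols were all of the form Snora, Snord or Scarna followed by a number, leaving out Snord64, Snord107 and Snord112 to Snord116. This rule gave 62 of the 35556 probe sets, of which 35 named C/D box snoRNAs, 23 named H/ACA box snoRNAs and 4 named scaRNAs. Where 2 probe sets held the same values throughout, they counted as 1 profile, which left 58 distinct profiles for 56 gene symbols, 33 of them C/D box, 22 H/ACA box and 3 scaRNA. A further 15 probe sets that name a snoRNA together with another gene were not members, and 24 imprinted snoRNA probe sets were left out.

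The study hybridized 4 Affymetrix Mouse Gene 1.0 ST arrays to RNA from whole brains of C57BL/6J males. The ethanol group (arrays ethanol 2 and ethanol 4) had received 2 subcutaneous doses of 2.5 g/kg ethanol in saline, 2 h apart, on postnatal days 4 and 7, and the control group (arrays control 1 and control 3) had received saline alone on those days. Each array held equal amounts of RNA from 3 males of different litters, so the 2 arrays of a group are 2 pools and spread between single animals was not measured. The labels give weaning on day 25 and tissue collection on day 60, and the methods give other days. Ethanol-exposed and control pups were littermates, although the labels do not say which pools match. The groups used here follow the titles and the source names. The treatment entry of the labels, however, reads ethanol for control 1 and control for ethanol 4, so only ethanol 2 and control 3 carry agreeing labels, and every direction below rests on the titles.

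SnoRNAs are short nuclear RNAs that guide the chemical modification of other RNAs. C/D box snoRNAs direct methylation of the ribose, H/ACA box snoRNAs direct the change of uridine to pseudouridine, both mostly on ribosomal RNA, and scaRNAs guide the same reactions on spliceosomal RNAs in the Cajal body. Most vertebrate snoRNAs are cut out of introns of host genes, many of which encode ribosomal proteins, translation factors or long noncoding RNAs. A probe inside such an intron can read the mature snoRNA and the unspliced host precursor, and these arrays cannot tell them apart. Total RNA was purified on silica columns, which retain mainly longer RNAs. In bulk brain tissue, fewer cells of a type and less RNA per cell cannot be told apart either.

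Hosts of snoRNAs often begin transcription in a stretch of pyrimidines. For the hosts of the 4 profiles described below as past the study's limits (at least 1.2-fold and an unadjusted p under 0.05) in both forms of the data, the 30 bases around the longest run of C and T near each annotated start are shown, 5′ to 3′, with the run in capitals. The sequences are RefSeq's, on GRCm38.p6.
Ncl (host of Snord82), chr1:86359406-86359435, minus strand: gccgaagtcacgaggaCCCCCTTCgtcgcc
Gas5 (host of Snord47), one annotated start, chr1:161034582-161034611, plus strand: gccaagggggcgggCCCgcgagctcgacag
Gas5, the other start, chr1:161035153-161035182, plus strand: ccgccatctcagCCTTTCggagctgtgcgg
Eef2 (host of Snord37), chr10:81176634-81176663, plus strand: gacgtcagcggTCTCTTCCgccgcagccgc
Haus6 (host of Scarna8), chr4:86612025-86612054, minus strand: tgcgcagtgtagTCTTCCgcaagcgcggga
The run was 8 bases long for Ncl and Eef2, 6 for Haus6 and for one Gas5 start, and 3 for the other Gas5 start. It began at base 37 of the transcript for Ncl, 15 for Eef2 and 14 for Haus6. Relative to the Gas5 starts it began at positions -5 (the run of 3) and -1 (the run of 6). Only the run of 6 thus spanned an annotated start. The stretch with the run of 3 holds another run of that length, ctc, which is not marked. Among all 32851 annotated mouse starts, 21.2% held a run of at least 8 C or T on the transcribed strand between 10 bases before and 50 bases after the start. The table matched only 33 of the 44 hosts, so the same share over the hosts would be void and is not given. No sequence of the snoRNAs themselves was used here.

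Signals of the members spread over most of the range of the table. The median log2 signal was 7.05 over the C/D box profiles (4.93 to 12.25), 7.52 over the H/ACA box profiles (4.76 to 11.15) and 9.74 over the 3 scaRNAs, against 6.45 over all probe sets, and 37 of the 58 profiles lay above that median. The brightest were Snord57 at 12.25, Snord104 at 11.76 and the H/ACA box snoRNA Snora52 at 11.15. The dimmest were Snora41 at 4.76 and Snord85 at 4.93. Probe sets differ in their probes, so these signals do not rank the RNAs by abundance.

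The 4 arrays did not share a centre. Their medians over all probe sets were 6.33 and 6.38 for the ethanol arrays, against 6.61 and 6.51 for the control arrays, and the median probe set differed by -0.146 (ethanol minus control, log2). Each result is therefore given as deposited and after quantile normalization of the 4 arrays, which brought that median to -0.00424. Markers of neurons, astrocytes and oligodendrocytes were bright on all arrays. The mean log2 signal of the 4 pituitary markers, Gh, Prl, Cga and Pomc, was 5.7 on ethanol 2 and 9.44 on ethanol 4, against 9.38 on control 1 and 9.43 on control 3. Gh, Prl and Cga carried this difference, whereas Pomc gave 5.48 and 5.50 on the ethanol arrays against 5.95 and 6.09 on the control arrays and was past the study's limits in both forms. Of the choroid plexus and muscle markers, Kl (-0.42) and Myh4 (-0.56) were past these limits as deposited and not after quantile normalization. The others of these lists, Ttr (-0.15), Folr1 (-0.24), Acta1 (-0.32) and Ckm (0.05, the other direction), were past them in neither form. The part of these markers in the results was not tested.

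As a whole, the members followed the rest of the array. Their median difference was -0.139 as deposited, which is 0.00708 above the median of all probe sets, and -0.00655 after quantile normalization. With limma's moderated test, 2 profiles were past the limits and higher in ethanol-exposed brains and 7 were past them and lower, while 49 were past them in neither direction. Over all probe sets the shares were 2.23% higher and 17.9% lower, so 2 of 58 and 7 of 58 (3.45% and 12.1%) were close to the first share and under the second. The groups did not overlap, with ethanol higher, for 7 profiles (12.1%, against 7.25% of all probe sets) and, with ethanol lower, for 25 profiles (43.1%, against 52.7% of all probe sets). After adjustment over all 35556 probe sets by the Benjamini-Hochberg method in limma, 0 members were under 0.05, 10 had an unadjusted p under 0.05, and the smallest adjusted p of any member was 0.161. Without ethanol 2, the array with the low pituitary markers, 4 profiles were past the limits, 1 higher (Snord15b) and 3 lower (Snora33, Scarna8 and Snord37). The methods' test, which takes the spread of each probe set alone, put 2 profiles past the limits. No share over all probe sets is given for that test or for fits without ethanol 2. These lower counts are therefore not read as a result about the members.

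Quantile normalization moved the balance. After it, 6 profiles (10.3%) were past the limits and higher and 2 (3.45%) were past them and lower, against 5.71% and 5.87% of all probe sets in the same directions. Without ethanol 2 they were 5, of which 4 were higher and 1 lower. The groups then did not overlap, with ethanol higher, for 13 profiles (22.4%, against 24% of all probe sets). With ethanol lower, they did not overlap for 8 profiles (13.8%, against 24.9% of all probe sets). Again 0 members passed after adjustment in limma, where the smallest adjusted p was 0.292 and 9 members had an unadjusted p under 0.05. Of the 13 profiles past the limits in one form or the other, Snord82 and Snord47, higher, and Snord37 and Scarna8, lower, were past them in both.

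All 6 profiles past the limits and higher after quantile normalization were C/D box snoRNAs. The C/D box class had 2 higher and 3 lower of 33 as deposited (6.06% and 9.09%, against 2.23% and 17.9% of all probe sets), and 6 higher and 1 lower after quantile normalization (18.2% and 3.03%, against 5.71% and 5.87% of all probe sets). The H/ACA box class had 0 higher and 3 lower of 22 (13.6%) as deposited, and 0 in either direction after quantile normalization. The scaRNAs had 0 higher and 1 lower of 3 in both forms. The median difference of the C/D box profiles was -0.105 as deposited and 0.0513 after quantile normalization, against -0.176 and -0.0312 for the H/ACA box profiles. The gap between the class medians, C/D box minus H/ACA box, was thus 0.0709 and 0.0825, and it turned to -0.0734 as deposited and -0.0813 after quantile normalization when arrays were grouped by the treatment entry. Relative to each profile's own mean, the C/D box median was -0.0949 on ethanol 2 and 0.0164 on ethanol 4, against 0.0518 on control 1 and 0.0149 on control 3, and the H/ACA box median was -0.176 on ethanol 2 and -0.0562 on ethanol 4, against 0.15 on control 1 and 0.0445 on control 3. After quantile normalization the C/D box median was 0.01 on ethanol 2 and 0.0728 on ethanol 4, against -0.0432 on control 1 and -0.0316 on control 3, and the H/ACA box median was -0.0842 on ethanol 2 and 0.0163 on ethanol 4, against 0.0343 on control 1 and -0.00744 on control 3. The groups thus overlapped for the C/D box medians and not for the H/ACA box medians as deposited, and the other way round after normalization. With 2 arrays in each group an exact two-sided permutation test cannot give a p below 0.333, so the classes were not tested against each other.

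**Figure D1:**
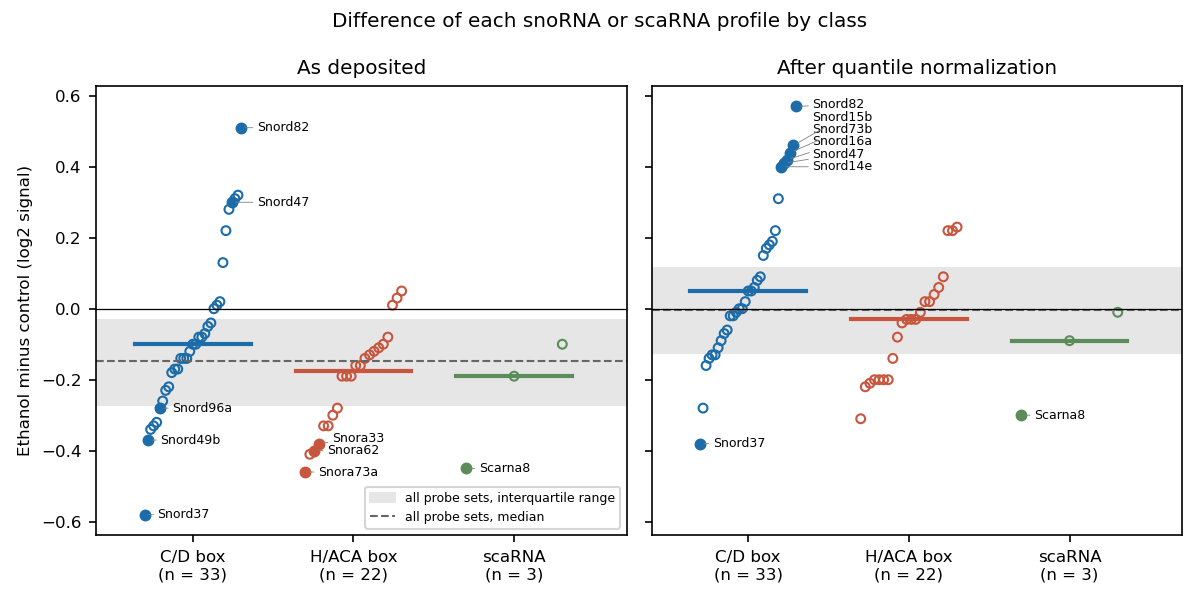
Ethanol minus control difference (log2 signal) of each of the 58 profiles by class, as deposited (left) and after quantile normalization (right). Filled points are past the study's limits, thick lines are class medians, and the grey band and dashed line are the interquartile range and the median of all probe sets; after normalization the 6 filled points above 0 are all C/D box.

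Snord82, a C/D box snoRNA in an intron of the nucleolin gene Ncl, had the highest difference of all members. Its log2 signals were 11.28 and 10.90 on the ethanol arrays, against 10.66 and 10.49 on the control arrays. Both ethanol pools lay above both control pools, but the ethanol pools differed from each other by more than the control pools did. The difference was 0.51 ± 0.16 (SE, n = 2 pools each), a 1.43-fold change, with an adjusted p of 0.195 in limma, and 0.57 after quantile normalization. As deposited, it was 0.32 without ethanol 2 and 0.43 without control 3, and in each case Snord82 was no longer past the limits. After quantile normalization these differences were 0.38, still past the limits, and 0.49, short of them.

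Snord47, which lies in the noncoding host Gas5 and is also used to normalize small RNA in quantitative PCR, gave 9.72 and 9.63 in ethanol-exposed brains, against 9.29 and 9.47 in controls. The 2 groups did not overlap. Its difference was 0.30 ± 0.11 (SE, n = 2 pools each; adjusted p = 0.209 in limma) as deposited and 0.41 after quantile normalization. Of the fits that left out one array, only that without control 3 kept Snord47 past the limits as deposited, at 0.39. The other differences were 0.26 without ethanol 2, 0.35 without ethanol 4 and 0.21 without control 1. After quantile normalization they were 0.36, 0.46, 0.30 and 0.53 without ethanol 2, ethanol 4, control 1 and control 3.

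Snord37, a C/D box snoRNA of the elongation factor gene Eef2, had the lowest difference of all members. It measured 6.18 and 6.09 on the ethanol arrays, against 6.65 and 6.78 on the control arrays. The gap between the groups was larger than the gap within either. The difference was -0.58 ± 0.10 (SE, n = 2 pools each; adjusted p = 0.161 in limma) as deposited and -0.38 after quantile normalization. Of the 9 profiles past the limits as deposited, it alone stayed past them whichever array was left out, with differences of -0.63, -0.53, -0.65 and -0.51 without ethanol 2, ethanol 4, control 1 and control 3. After quantile normalization it fell short of them without ethanol 4 (-0.30) or control 3 (-0.26).

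Scarna8, a scaRNA inside Haus6, a gene for a subunit of the spindle complex augmin, was dim on all arrays. It gave 4.93 and 4.84 in ethanol-exposed brains and 5.47 and 5.21 in controls, with no overlap. Its difference was -0.45 ± 0.12 (SE, n = 2 pools each; adjusted p = 0.176 in limma) as deposited and -0.30 after quantile normalization, and it fell short of the limits as deposited without ethanol 4 (-0.41) or control 1 (-0.32). After quantile normalization it stayed past them only without control 3 (-0.38), with -0.39 without ethanol 2, -0.23 without ethanol 4 and -0.21 without control 1. The other scaRNAs were far brighter. Scarna13, in the noncoding host Snhg10, gave 10.06 and 9.96 on the ethanol arrays and 10.08 and 10.13 on the control arrays, and Scarna17 gave 9.61 and 9.68 on the ethanol arrays and 9.90 and 9.76 on the control arrays. Their differences were -0.10 and -0.19, on either side of the median of all probe sets, and the groups of Scarna13 overlapped after normalization.

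The remaining profiles past the limits as deposited were 3 H/ACA box and 2 C/D box snoRNAs, all lower in ethanol-exposed brains. Snora73a, one of the few H/ACA box snoRNAs that serves cleavage of the ribosomal RNA precursor, gave 7.78 and 7.63 in the ethanol group against 8.33 and 7.99 in the control group, a difference of -0.46 ± 0.15. Snora62, in the ribosomal protein gene Rpsa, gave 5.72 and 6.00 in the ethanol group against 6.29 and 6.24 in the control group (-0.40 ± 0.12), and Snora33, in Rps12, gave 5.68 and 5.60 against 6.09 and 5.96 in controls (-0.38 ± 0.10). For each of these 3 snoRNAs both ethanol pools lay below both control pools. The C/D box snoRNA Snord49b gave 9.65 and 9.90 in the ethanol group and 10.19 and 10.09 in the control group (-0.37 ± 0.12), and Snord96a, in the ribosomal scaffold gene Rack1, gave 5.28 and 5.45 in the ethanol group and 5.65 and 5.64 in the control group (-0.28 ± 0.10). All errors are SE with 2 pools each, and the adjusted p-values in limma lay between 0.174 for Snora33 and 0.213 for Snord96a. After quantile normalization the differences were -0.31 for Snora73a, -0.20 for Snora62, -0.20 for Snora33, -0.28 for Snord49b and -0.11 for Snord96a, all short of the limits.

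The direction of the 4 C/D box snoRNAs that passed only after normalization was already positive in the deposited values. Snord14e, of the heat shock cognate gene Hspa8 and of a family that takes part in processing of the ribosomal RNA precursor, gave 9.30 and 9.10 in ethanol-exposed brains and 8.89 and 8.94 in controls. Snord15b, of the ribosomal protein gene Rps3, gave 7.88 and 8.16 in ethanol-exposed brains and 7.81 and 7.62 in controls. In both cases the ethanol pools lay above the control pools. Snord16a, of Rpl4, gave 7.20 and 7.13 in the ethanol group and 6.89 and 6.99 in the control group, and Snord73b, of Rps3a1, gave 9.36 and 9.40 in the ethanol group and 9.26 and 8.85 in the control group. The groups did not overlap here either, and control 3 was the low array for Snord73b. Without control 3 the difference of Snord73b was 0.12 as deposited and 0.26 after quantile normalization. As deposited, that of Snord15b was 0.17 without ethanol 4 and that of Snord14e was 0.18 without ethanol 2. After quantile normalization these were 0.33 and 0.29, the lowest of each with one array left out. For Snord16a the lowest was 0.32, without control 1. The differences were 0.28, 0.31, 0.22 and 0.32 as deposited for Snord14e, Snord15b, Snord16a and Snord73b, and 0.40, 0.46, 0.42 and 0.44 after quantile normalization.

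**Figure D2:**
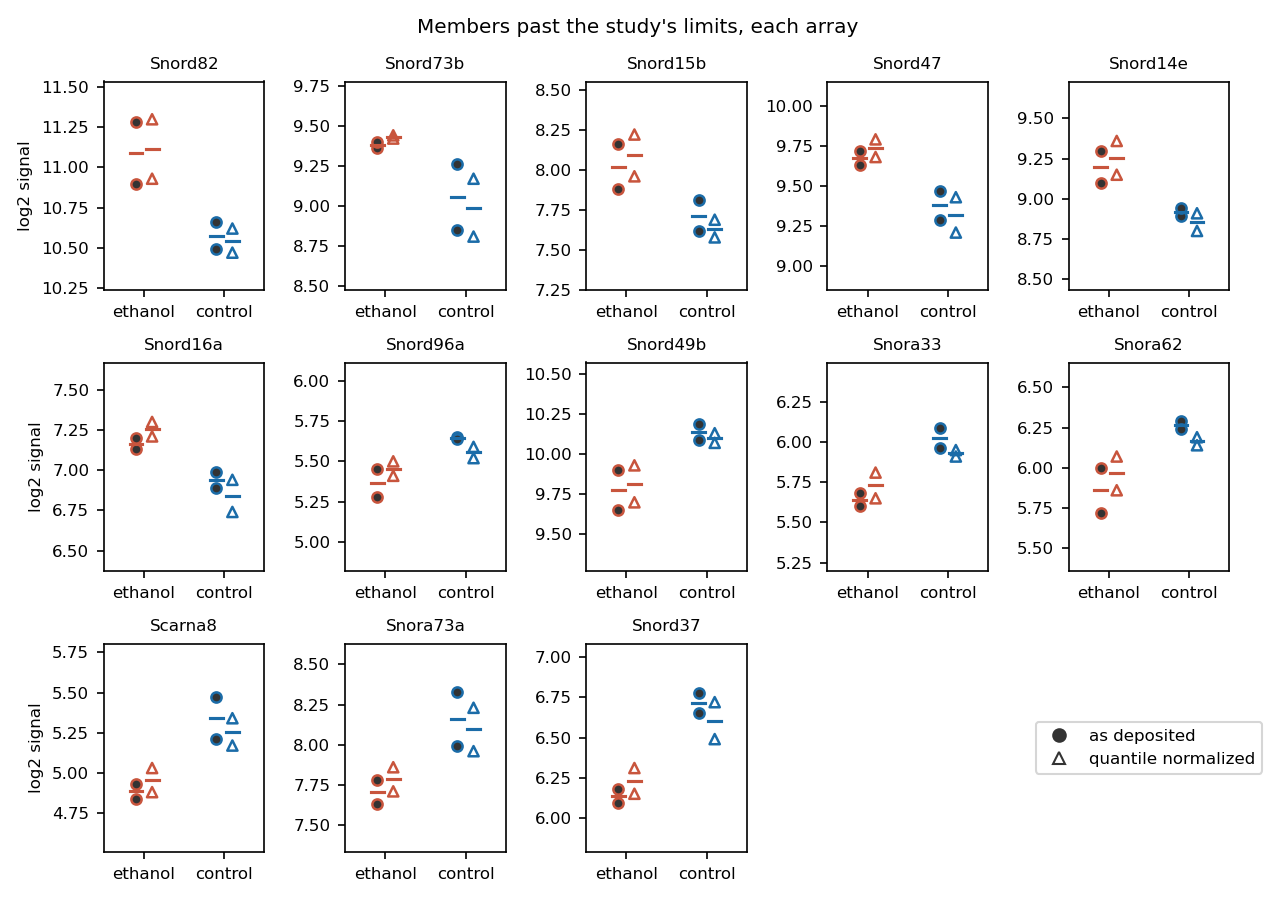
Log2 signal on each array of the 13 members past the study's limits in either form of the data, ethanol arrays left and control arrays right, each panel spanning the same range of log2 signal. Circles are deposited values, triangles quantile-normalized values and bars group means (n = 2 pools each). In every panel the 2 groups do not overlap in either form, which follows largely from choosing the members by these same values. Over all probe sets, groups did not overlap for 7.25% (higher) and 52.7% (lower) as deposited, and for 24% and 24.9% after quantile normalization.

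Gaps between the pools of one group were also measured, as deposited. Over the 58 profiles, the gap between the 2 pools of a group had a median of 0.17 in the ethanol group and 0.14 in the control group. The size of the difference between groups had a median of 0.176, against 0.174 over all probe sets. A gap between 2 single arrays varies more than a difference between means of 2 arrays, and both hold shifts of whole arrays. The 2 sizes are therefore not like measures. The gap between pools exceeded the 1.2-fold limit for 17 profiles in the ethanol group and for 12 in the control group. The same share over all probe sets is not given, so these counts do not set the members apart. Snora44, of the noncoding host Snhg12, had the widest gap within a group, 0.89 between the control pools, with 7.72 and 8.09 in ethanol-exposed brains and 7.41 and 8.30 in controls. Snora20, of the chaperonin gene Tcp1, had a low difference of -0.41 that rested on control 1, with 5.76 and 6.00 in the ethanol group and 6.56 and 6.01 in the control group. Snora31, of Tpt1, gave 8.19 and 8.39 in the ethanol group and 8.78 and 8.45 in the control group (-0.33), again with control 1 apart. At the other end, Snora70, of Rpl10, gave 5.95 and 5.94 in the ethanol group and 5.93 and 5.89 in the control group (0.03), and Snord58b gave 7.24 and 7.24 in the ethanol group and 7.24 and 7.22 in the control group (0.01). As deposited, the groups of Snora70 did not overlap and those of Snord58b did. After quantile normalization both were higher without overlap and short of the limits, at 0.23 for Snora70 and 0.19 for Snord58b. The profile just outside the fold limit was Snord35a of the ribosomal protein gene Rpl13a, at -0.26 with an unadjusted p of 0.0433 in limma, and the one just inside was Snord96a. Low differences of C/D box snoRNAs that were past the fold limit and missed the p limit were those of Snord33 (-0.34), Snord38a (-0.33) and Snord87 (-0.32), each smaller after quantile normalization, at -0.13, -0.16 and -0.13.

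Snord118, which is transcribed from its own promoter and takes part in processing of the ribosomal RNA precursor, gave 5.01 and 5.54 in ethanol-exposed brains and 5.54 and 5.35 in controls, and the groups overlapped. Snord22, another C/D box snoRNA of precursor processing, in the noncoding host Snhg1, gave 5.08 and 4.89 in ethanol-exposed brains and 5.32 and 5.09 in controls, a difference of -0.22 as deposited and -0.07 after quantile normalization. The brightest members, Snord57 and Snord104, gave overlapping groups. Snord57, of Nop56, a gene for a core C/D box protein, had 12.33 and 12.09 in the ethanol group and 12.30 and 12.27 in the control group, and Snord104 had 11.48 and 11.89 in the ethanol group and 11.74 and 11.91 in the control group.

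SnoRNAs of the kind used to normalize small RNA measurements did not share one direction. Of those listed, Snord47, Snord61, Snord95 and Snord96a are members. Snord47 was past the limits and higher in both forms, and Snord96a was past them and lower as deposited only. Snord61, of the splicing gene Rbmx, gave 5.30 and 5.40 in the ethanol group and 5.42 and 5.61 in the control group, a difference of -0.17 as deposited and 0.00 after quantile normalization. Snord95, of Rack1, gave 8.01 and 8.12 in the ethanol group and 8.25 and 8.05 in the control group, -0.08 as deposited and 0.05 after quantile normalization, with overlapping groups.

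SnoRNAs of the same host were also compared with each other. In 10 pairs of members inside one host, the pair's gap on each array (the member with the higher difference minus the other) was compared between groups, a measure that a constant shift of a whole array does not change. The gap was larger by 0.07 to 0.64 in the ethanol group, with a median of 0.23. The order within each pair fixes this sign, so neither the sign nor the number of pairs without overlap is evidence of a difference, and the values are a description. In 6 pairs the gaps of the 2 groups did not overlap, for which an exact two-sided permutation test gives 0.333, the smallest p that 2 arrays against 2 allow. In Ncl the gap of Snord82 over Snora75 was 5.51 and 4.81 in ethanol-exposed brains, against 4.6 and 4.43 in controls. In Rps3a1 the gap of Snord73b over Snord73a was 4.62 and 4.21 in ethanol-exposed brains, against 4.14 and 3.77 in controls. The neighbours, Snora75 at -0.13 and Snord73a at -0.14, stood near the median of all probe sets. The pairs of 2410006H16Rik, Rack1 and Rps3 also did not overlap, and those of Rpl13a, Rpl23a, Snhg12 and Snhg3 did.

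Host genes were set beside their snoRNAs where a probe set named the host alone. The annotation gave 44 hosts for the 58 profiles, 25 of which were measured this way, and these covered 31 profiles. Snord118 lay in no host. Snord47 and Gas5 were both past the limits and higher in both forms. Gas5, a noncoding RNA whose introns carry several C/D box snoRNAs, gave 8.95 and 9.19 in the ethanol group and 8.79 and 8.64 in the control group, 0.36 ± 0.13 as deposited (SE, n = 2 pools each; adjusted p = 0.211 in limma) and 0.48 after quantile normalization. Haus6, like Scarna8, was lower, with 6.58 and 6.33 in the ethanol group and 6.96 and 7.00 in the control group, -0.53 ± 0.12 (SE, n = 2 pools each; adjusted p = 0.171 in limma) and -0.32 after quantile normalization, when it was no longer past the limits. The hosts of Snord82 and Snord37 were past the limits in neither form. Ncl gave 10.24 and 10.20 in the ethanol group and 10.35 and 10.19 in the control group, and Eef2 gave 11.95 and 12.06 in the ethanol group and 12.05 and 12.06 in the control group, a difference of -0.05 for each host.

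Further hosts past the limits were Eef1b2 (-0.33), the host of Snora41, and Snhg16 (-0.42), the host of the profile shared by Snord1b and Snord1c, both lower as deposited and neither past the limits after quantile normalization. Snora41 and Snord1b/Snord1c themselves stood at -0.16 and -0.10. Of the hosts of the 4 snoRNAs that passed only after quantile normalization, Hspa8 (-0.19), Rps3 (-0.16) and Rpl4 (-0.19) were negative as deposited. Rps3a1 stood at 0.07 ± 0.25 (SE, n = 2 pools each), with 8.42 and 8.37 in the ethanol group and 8.69 and 7.97 in the control group. Control 3 was thus the low array for Rps3a1 as for Snord73b. Over the 31 profiles, snoRNA and host had the same sign in 21, with Pearson's r of 0.243 and Spearman's rho of 0.155 across profiles as a description. These profiles share their 4 arrays and in part their hosts, and most probe sets of the table were negative.

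**Figure D3:**
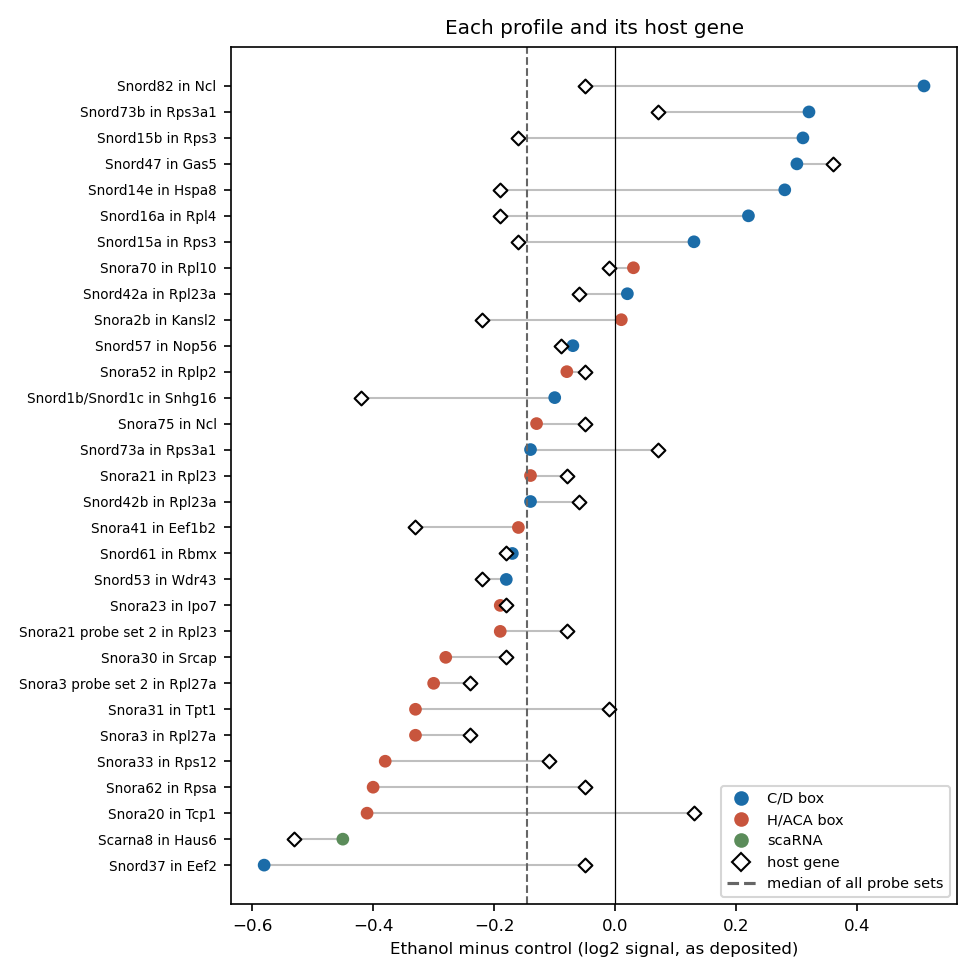
Ethanol minus control difference (log2 signal, as deposited) of the 31 profiles whose host gene was measured, coloured by class, with the host as a diamond on the same row and the median of all probe sets as a dashed line. Snord47 with Gas5 and Scarna8 with Haus6 lie close together, whereas Snord82 (0.51) and Snord37 (-0.58) lie far from Ncl and Eef2 (-0.05 each).

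Genes for the proteins that build, carry and process snoRNA particles lay close to the rest of the array. All 27 genes of this list were measured, and their median difference was -0.1 as deposited and 0.01 after quantile normalization. Of them, 1 was past the limits and higher and 1 past them and lower as deposited, and 2 were higher and 0 lower after quantile normalization, where all probe sets gave 2.23% higher and 17.9% lower as deposited and 5.71% higher and 5.87% lower after quantile normalization. Xpo1, the nuclear export receptor that also delivers C/D box snoRNAs to the nucleolus, gave 9.40 and 9.24 in ethanol-exposed brains and 9.01 and 9.09 in controls (0.27 ± 0.10 as deposited, 0.39 after quantile normalization). Ncbp2, a subunit of the cap-binding complex, gave 8.21 and 8.22 in ethanol-exposed brains and 8.53 and 8.49 in controls (-0.29 ± 0.08 as deposited, -0.15 after quantile normalization). Both errors are SE with n = 2 pools each. Coil, the marker protein of Cajal bodies, was past the limits only after quantile normalization, at 0.31, with 6.31 and 6.41 in the ethanol group and 6.25 and 6.27 in the control group. The core C/D box genes Fbl (-0.23), Nop56 (-0.09), Nop58 (-0.23) and Snu13 (-0.09) and the core H/ACA box genes Dkc1 (-0.26), Nop10 (-0.24), Nhp2 (-0.09) and Gar1 (-0.10) were past the limits in neither form. The smallest adjusted p of the list in limma was 0.183.

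The calls changed with the label that names the groups. By the treatment entry, each group holds an array titled ethanol and an array titled control. A difference between titles then becomes spread within groups, so lost calls and turned signs follow largely from the regrouping. They do not decide between the labels. Under the treatment entry, with ethanol 2 and control 1 as ethanol, 0 of the 9 profiles past the limits as deposited remained past them and 4 turned sign, and only Snora44, at -0.63, was past them. Across all members, 27 of 58 kept their sign. In the pair of arrays on which both labels agree, ethanol 2 minus control 3, all 9 had the same sign as in the comparison by title. This value has no replicates and shares both arrays with that comparison. The groups of all 9 did not overlap by title, so the sign was fixed in advance and is no evidence for the titles.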

How the data were processed

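The 4 arrays were Affymetrix Mouse Gene 1.0 ST arrays of pooled male whole-brain RNA. The authors used Partek Genomics Suite to summarize the probes of each gene by RMA with an adjustment for GC content and quantile normalization, and deposited log2 values. The submitters' notes name version 6.6, and the methods name another version. The medians of the deposited arrays differ, so each result was computed on the deposited table and on a quantile-normalized copy of it. Gene names come from the platform annotation. Hosts were the shortest gene that wholly contains the snoRNA in RefSeq's GRCm38.p6 table, which gives no strand, so strand was not used, and 3 profiles lay in several genes. The files name no build, so no coordinates of members are given.

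All 35556 probe sets were fitted with limma 3.58.1 in R 4.3.3 (two-sided, 2 residual and 2.57 prior degrees of freedom), with Benjamini-Hochberg adjustment over all of them, no filter and no covariate. The fit was tested on simulated data. Arrays give no molecule counts, so their number limits precision. P-values measure spread between pools. Members and lists were chosen with earlier results of these data known. Described in full were the scaRNAs, profiles past the limits in either form, and by rule the highest and lowest differences and signals of each class, the qPCR normalizers, and the hosts and protein genes of these. Alternatives were the grouping, scaling, a filter, the test, the fold limit and leaving out each array. Of the pairs of members in one host, 1 is counted but not reported by name here.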

Additional observations from a re-analysis of the deposited data

How the results depend on the processing

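The 9 members past the limits (2 higher, 7 lower) became 1 (0 higher, 1 lower) with grouping by the treatment entry, 4 (1 higher, 3 lower) with that grouping after quantile normalization, 8 (7 higher, 1 lower) with arrays centred on their medians, 8 (6 higher, 2 lower) after quantile normalization, 2 (0 higher, 2 lower) with the methods' test, and 0 (0 higher, 0 lower) with a 1.5-fold limit. They stayed at 9 with a minimum mean log2 of 5 and with each probe set counted, and were 10 with an intensity trend in limma. Leaving out one array gave 3 to 10 (1 to 2 higher, 1 to 9 lower), with 4 without ethanol 2, 10 without ethanol 4, 3 without control 1 and 10 without control 3. After quantile normalization it gave 4 to 10 (3 to 5 higher, 1 to 5 lower). A lone array in a group was assumed to vary like the other group. No share over all probe sets is given for these settings apart from quantile normalization by title. A changed count can therefore follow the whole table and is not a result about the members. The median of members relative to all probe sets, 0.00708, was -0.0341 with quantile normalization and the treatment entry, and -0.0503 over the 2 arrays whose labels agree, which allow no test and no count. The gap between the C/D box and H/ACA box medians, 0.0709, was -0.0734 with the treatment entry, -0.0813 with quantile normalization as well, 0.125 with means and 0.0544 to 0.148 with one array left out. The H/ACA box median signal was 7.82 among probe sets with a mean of at least 5.

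Differences that turned sign with the treatment entry were 0.03 for Scarna13, 0.03 for Scarna17, 0.17 for Scarna8, 0.15 for Snora20, -0.07 for Snora2b, 0.15 for Snora3 (probe set 2), 0.07 for Snora31, 0.11 for Snora33, 0.04 for Snora41, -0.63 for Snora44, 0.24 for Snora73a, -0.04 for Snord15b, -0.02 for Snord16a, 0.21 for Snord22, -0.05 for Snord47, 0.14 for Snord57 and 0.05 for Snord95. With quantile normalization and the treatment entry they were 0.01 for Scarna13, 0.02 for Scarna17, 0.16 for Scarna8, 0.13 for Snora20, -0.10 for Snora2b, 0.14 for Snora3 (probe set 2), 0.05 for Snora31, 0.10 for Snora33, 0.03 for Snora41, -0.67 for Snora44, 0.21 for Snora73a, -0.07 for Snord15b, -0.05 for Snord16a, 0.21 for Snord22, -0.06 for Snord47, 0.10 for Snord57 and 0.02 for Snord95. With arrays centred on their medians they were 0.12 for Scarna13, 0.02 for Scarna17, 0.02 for Snora23, 0.06 for Snora41, 0.13 for Snora52, 0.11 for Snora73b, 0.07 for Snord104, 0.14 for Snord57, 0.04 for Snord61, 0.07 for Snord73a, 0.13 for Snord85 and 0.13 for Snord95, and with quantile normalization 0.09 for Snora73b, 0.00 for Snord61, 0.05 for Snord85 and 0.05 for Snord95. In the arrays whose labels agree they were -0.06 for Snora2b, -0.58 for Snora44 and 0.07 for Snord57. With one array left out, the differences that turned sign ranged from -0.06 to 0.08 for Snora2b, -0.39 to 0.50 for Snora44, -0.23 to 0.02 for Snora73b, -0.34 to 0.07 for Snord104, -0.19 to 0.05 for Snord57, -0.36 to 0.09 for Snord73a and -0.18 to 0.02 for Snord95. No paired analysis was possible because the groups share no replicate number. The cause of these changes was not tested.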

Other observations

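Probe sets that name a snoRNA together with another gene were not members, and a change there cannot be assigned to either gene. Of the 15 such probe sets, 14 with distinct values, 2 were past the study's limits and higher in ethanol-exposed brains, 5 were past them and lower, and 3 were past them after quantile normalization, 2 higher and 1 lower. Over all probe sets the shares were 2.23% higher and 17.9% lower as deposited, and 5.71% higher and 5.87% lower after quantile normalization. The 2 higher ones both name Snord14c and Snord14d with Hspa8, the host that also carries Snord14e. The first gave 10.54 and 10.14 in the ethanol group and 9.90 and 9.90 in the control group (0.44), and the second gave 10.70 and 10.34 in the ethanol group and 10.13 and 10.10 in the control group (0.41). Both were past the limits after quantile normalization, at 0.52 and 0.48, whereas Hspa8's own probe set differed by -0.19. The lower ones were Snord14a with Rps13 (-0.47), Snora34 with Mir1291 (-0.42, and -0.29 and past the limits after quantile normalization), Snora19 with Mir3084-1 and Mir3084-2 (-0.40, in 2 probe sets with identical values) and Snora24 with Snhg8 (-0.32). Snord68 with Rpl13 gave 8.21 and 8.44 in the ethanol group and 8.33 and 8.32 in the control group, a difference of 0.00 as deposited and 0.13 after quantile normalization.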
